A study of Rattus norvegicus with 6 samples.

Results

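The genes of cholesterol and fatty acid synthesis were followed in cultured rat chondrocytes that received retinoic acid (RA). A list of 34 genes was used, matched by symbol in the deposited tables of 18923 genes, and all 34 had a row. The list covers 7 mevalonate and isoprenoid genes, 11 genes of the steps from squalene to cholesterol, 5 genes that control SREBP, 4 genes of sterol transport and LXR targets, and 7 genes of fatty acid synthesis. Chondrocytes came from the cartilage of female wild-type Sprague-Dawley rats 24 h after birth and were used at passage 1 or 2. The RA group (3 samples) was cultured for 24 h with 1 µM all-trans RA, and the CON group (3 samples) for 24 h without it. Both groups were kept in high-glucose DMEM with 10% fetal bovine serum and penicillin-streptomycin. The study describes its replicates as biologically independent. Whether the CON group received a vehicle, and how many animals stand behind each sample, are not given in the sources used here, and p-values measure only the spread between these samples.

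Cells make cholesterol from acetyl-CoA through mevalonate, farnesyl diphosphate and squalene, and they make fatty acids from acetyl-CoA that ATP citrate lyase releases from citrate. The transcription factors SREBP-1 and SREBP-2 switch on the genes of both routes when membrane sterol is low. The escort protein SCAP carries them out of the endoplasmic reticulum, and the INSIG proteins hold them back when sterol is plentiful. The nuclear receptor LXR, which pairs with RXR, is switched on by oxysterols and raises the genes that export cholesterol. RXR is also the partner of the RA receptors.

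Total counts per sample lay between 29370025 and 38007486, so a count of 3, the limit that a count of 0 allows, was 0.0789 to 0.102 CPM (counts scaled to library size), for counting error alone. A differentially expressed gene (DEG) had an adjusted p under 0.05 together with an absolute log2 fold change over 0.58. Of the retinoid response genes Cyp26a1, Cyp26b1, Rarb, Dhrs3 and Stra6, all but Stra6 were DEGs with a higher level in RA, with Cyp26b1 at 2.65 on the log2 scale (edgeR quasi-likelihood, adjusted p = 1.18e-05). The chondrocyte markers Col2a1, Acan, Sox9, Col9a1, Hapln1 and Matn3 were all abundant, with a summed level of 5952 to 7829 FPKM (fragments per kilobase of gene, scaled by library size) in CON and 3736 to 4021 FPKM in RA, and all 6 were lower in RA (adjusted p below 0.05). CON sample 1 stood apart from the other libraries. The chi-square between 2 samples of a group, per gene, was 39.6 and 63.3 for CON sample 1 against CON samples 2 and 3, and 6.53 to 8.25 for the other 4 pairs. Values of the members without CON sample 1 follow the account of the branches.

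RA left the transcripts of most of these genes near their CON level, and 2 of the 3 genes that passed the test encode sterol exporters. Of the 34 genes, 33 passed edgeR's filter on low counts and were tested. The 1 DEG was Abcg1, a cholesterol exporter, which was higher in RA. No member was a DEG in the lower direction by edgeR or by DESeq2. By edgeR, 10 members had an unadjusted p below 0.05, 7 of them lower in RA and 3 higher. That is 30.3% of the members against 24% of all tested genes. DEGs made up 3.03% of the tested members and 4.96% of all 13438 tested genes, with 2.67% of all genes higher and 2.29% lower. An adjusted p below 0.05 at any fold change was reached by 3 members, namely Abcg1 and Abca1, which were higher in RA, and Cyp51, which was lower. That is 9.09% of the members against 9.82% of all tested genes, of which 5.31% were higher and 4.5% lower. Neither share set these genes apart from the rest of the transcriptome. Among genes with a mean of at least 10 FPKM, 1 of 27 members had an adjusted p below 0.05, against 10.9% of the 6117 tested genes at that level. In these bulk samples, fewer cells of a type and less RNA per cell cannot be told apart.

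The size of the changes was bounded tightly for most members. Apart from Abcg1, all 32 tested members had a log2 fold change between -0.35 and 0.35. The 95% interval of the log2 fold change lay wholly inside -0.58 to 0.58 for 30 of the 33 members, or 90.9%, compared with 64.3% of all tested genes. Most members are abundant, so the same count was made among abundant genes. Among the 6117 tested genes with a mean of at least 10 FPKM, the interval was inside these bounds for 88%, and among the 27 members at that level for 26, or 96.3%. The 3 members outside were Abcg1, Mvk and Hsd17b7, and the intervals of Mvk and Hsd17b7 passed the upper bound by a small margin. Srebf1 counted as inside with the lower end of its interval at -0.5795, almost at the bound. The median of the absolute log2 fold change was 0.13 over the members and 0.16 over all tested genes, and the median of the signed value was -0.021 over the members and -0.0057 over all genes.

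**Figure D1:**
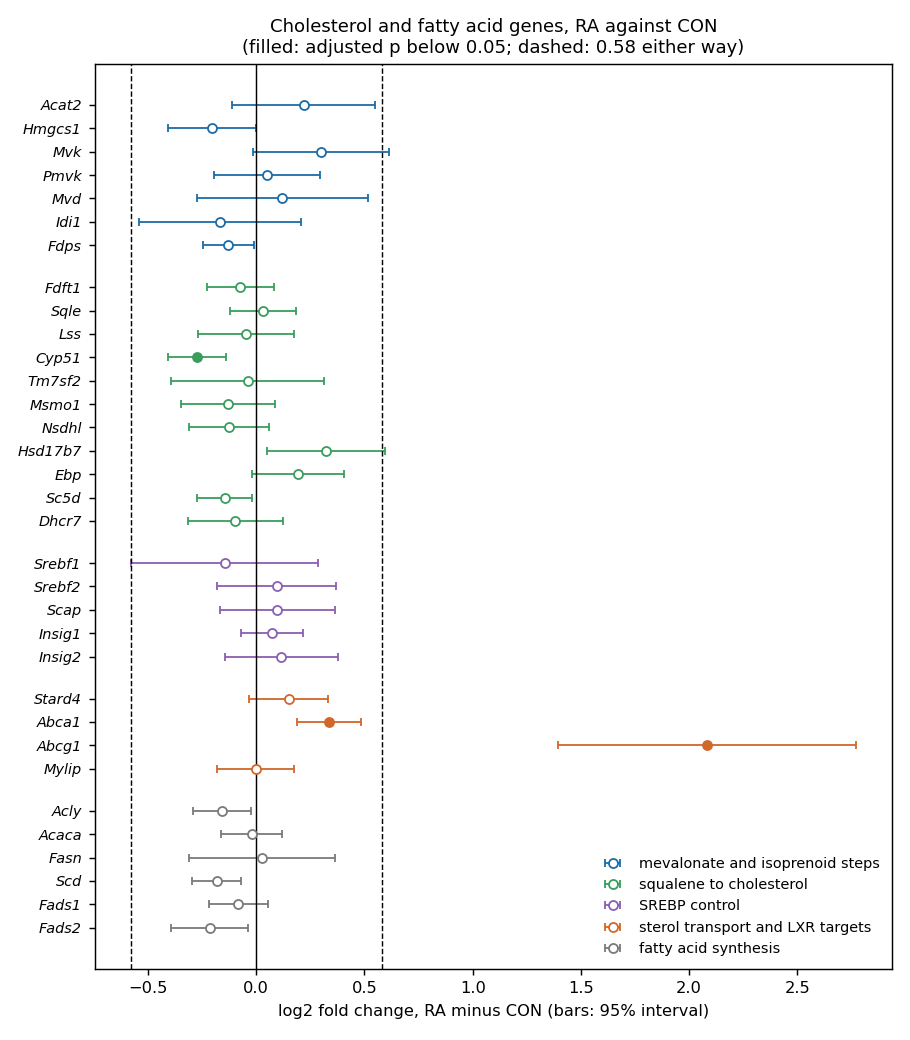
Log2 fold change of RA against CON for the 33 tested genes (x axis), grouped and coloured by branch, with the 95% interval from edgeR as bars and dashed lines at -0.58 and 0.58. Abcg1, Abca1 and Cyp51 are the filled points (adjusted p below 0.05), and the intervals of 30 of the 33 genes lie between the dashed lines.

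The largest change was in sterol export. Abcg1, an ABC transporter that passes cholesterol to high-density lipoprotein and a well-known LXR target, was counted 14, 13 and 17 times in CON samples 1, 2 and 3 and 64, 38 and 71 times in RA samples 1, 2 and 3. The groups did not overlap, the CON samples lay close together, and RA sample 2 was the lowest of the RA samples. At counts this low, counting error is large. The small SD in CON therefore makes the CON level look more precise than it is. The mean level was 0.114 ± 0.00327 FPKM in CON and 0.492 ± 0.139 FPKM in RA (SD, n = 3 each), and the log2 fold change came to 2.08 ± 0.301 (standard error, Benjamini-Hochberg adjusted p = 0.00354 from the quasi-likelihood fit of edgeR). This is 4.24-fold, with a 95% interval from 2.63- to 6.83-fold. Abcg1 was also the least abundant of the tested members, at the 6th percentile of tested genes by mean FPKM. It passed the test whichever of the 6 samples was dropped, with log2 fold changes from 1.93 to 2.30. On FPKM with limma the log2 fold change was 1.44 with 0.1 added to each value and 0.42 with 1 added (adjusted p = 0.0179), where it was no longer a DEG. Both added values are near or above its level, which shrinks the change.

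Abca1, the transporter that loads cholesterol and phospholipid onto apolipoprotein A-I and another LXR target, rose by less. Its level was 5.23, 4.79 and 4.92 FPKM in CON samples 1, 2 and 3 and 6.12, 6.46 and 6.44 FPKM in RA samples 1, 2 and 3. Every RA sample was above every CON sample. The log2 fold change was 0.34 ± 0.0646 (standard error), with an edgeR adjusted p of 0.0134, or 1.26-fold with a 95% interval from 1.14 to 1.40. The direction held with each sample left out, while the call was lost without CON sample 2 (0.30, adjusted p = 0.0737, edgeR), without RA sample 2 (0.32, adjusted p = 0.0839, edgeR) and without RA sample 3 (0.32, adjusted p = 0.0828, edgeR).

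The other members of this branch did not pass the test. Mylip encodes IDOL, a ubiquitin ligase that marks lipoprotein receptors for degradation and is likewise a known LXR target, and its log2 fold change was -0.0029 (95% interval -0.18 to 0.18). Stard4 encodes a soluble carrier of cholesterol between membranes and had 0.15 (-0.034 to 0.33), with RA above CON in all samples at 7.34 ± 0.42 and 8.20 ± 0.367 FPKM (SD, n = 3 each). The LXR receptor genes were not members, and neither passed the test, with log2 fold changes of 0.12 (-0.17 to 0.40) for Nr1h2 and 0.15 (-0.12 to 0.41) for Nr1h3. Genes were labelled as LXR targets in this branch only, and those of the other branches were not sorted this way.

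**Figure D2:**
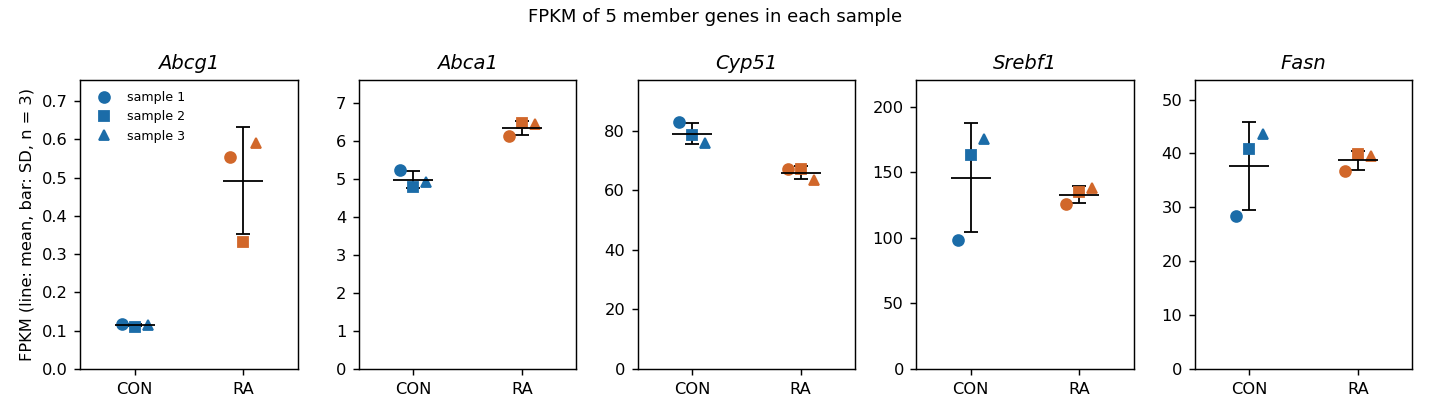
FPKM (y axis, from 0) of Abcg1, Abca1, Cyp51, Srebf1 and Fasn in each sample, with CON and RA side by side, 1 symbol per sample number, a line at the group mean and a bar for the SD (n = 3). RA lies above CON for Abcg1 and Abca1 and below it for Cyp51, while for Srebf1 and Fasn CON sample 1 lies below all other samples and the RA samples fall between it and CON samples 2 and 3.

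Macrophages express both exporters strongly and adipocytes make fat, so markers of these cells were looked up. The summed level of 6 macrophage markers was 1.48 to 1.82 FPKM in CON and 1.80 to 2.00 FPKM in RA. Most of it was Cd68, at 1.05 ± 0.125 and 1.28 ± 0.0277 FPKM. Every RA sample had more Cd68 than every CON sample, though by few counts. Cd68 was counted 42, 43 and 43 times in CON and 48, 47 and 48 times in RA (adjusted p = 0.466, edgeR). Groups did not overlap for 31.9% of all tested genes, in either direction. Ptprc and Aif1 were at or below 0.0270 FPKM in every sample. Csf1r had 0.0864 ± 0.0569 FPKM in CON and 0.171 ± 0.0594 FPKM in RA (log2 fold change 0.91), and Lyz2 had 0.420 ± 0.138 and 0.346 ± 0.0751 FPKM (-0.27), both with overlapping groups. C1qa had 0.0940 ± 0.0311 FPKM in CON and 0.0633 ± 0.0549 FPKM in RA. None of the 6 was called (Cd68, Csf1r and Lyz2 were tested). The summed level of 6 adipocyte markers was 3.13 to 3.92 FPKM in CON and 5.08 to 6.11 FPKM in RA. That was mainly Fabp4, which was a DEG and went from 2.67 ± 0.468 to 4.72 ± 0.612 FPKM, while Adipoq, Plin1, Cidec and Lep stayed at or below 0.0910 FPKM in every sample. Plin4, the other adipocyte marker tested, had 0.807 ± 0.143 FPKM in CON and 0.732 ± 0.141 FPKM in RA, with overlapping groups and a log2 fold change of -0.15. The skeletal muscle markers with a row (Myh3, Actn2, Ckm and Des) summed to 4.47 to 5.66 FPKM in CON and 6.42 to 7.29 FPKM in RA. That was mostly Des, which was above CON in every RA sample and did not pass the test (0.39, edgeR adjusted p = 0.0766). The part of these markers, or of the lower chondrocyte markers, in the values of the members was not tested.

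The 11 genes between squalene and cholesterol included Cyp51, the single member with a lower level in RA at an adjusted p below 0.05 in the edgeR fit of all 6 samples. It encodes lanosterol 14-alpha-demethylase, the P450 enzyme that starts the trimming of lanosterol. It had 82.9, 78.6 and 75.9 FPKM in CON samples 1, 2 and 3 and 67.4, 67.1 and 63.6 FPKM in RA samples 1, 2 and 3. All RA samples lay below all CON samples, with a log2 ratio of RA to CON of -0.27 ± 0.0576 (standard error, edgeR adjusted p = 0.02), or 0.827-fold with a 95% interval from 0.755 to 0.906. The value stayed between -0.29 and -0.24 with each sample left out. The call was lost without CON sample 2 (-0.28, edgeR adjusted p = 0.0762). It was also lost when RA sample 1 was dropped (-0.28, edgeR adjusted p = 0.0817), as it was for RA sample 2 (-0.29, edgeR adjusted p = 0.0847) and for RA sample 3 (-0.25, edgeR adjusted p = 0.122).

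The enzymes on either side of Cyp51 did not pass the test. Fdft1, which makes squalene, had a log2 fold change of -0.073, Sqle, the squalene epoxidase and a rate-limiting enzyme of the route, 0.032, and Lss, which closes the ring to lanosterol, -0.049. After Cyp51, the reductase Tm7sf2 had -0.040, the demethylation enzymes Msmo1 and Nsdhl had -0.13 and -0.13, the isomerase Ebp 0.19, the desaturase Sc5d -0.15 and the last reductase Dhcr7 -0.096. The largest absolute value of the branch was that of Hsd17b7, which also acts in the removal of the methyl groups. It was at a low level, with 2.45, 2.56 and 2.16 FPKM in CON samples 1, 2 and 3 and 3.40, 2.82 and 2.81 FPKM in RA samples 1, 2 and 3. The groups did not overlap, and the log2 fold change of 0.32 (95% interval 0.051 to 0.60) had an adjusted p of 0.143 by edgeR. Over the 11 genes, 3 values were above 0 and 8 below, with a median of -0.073. The summed level of the branch was 333, 313 and 309 FPKM in the CON samples and 299, 297 and 298 FPKM in the RA samples.

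No gene of the mevalonate and isoprenoid steps was called, by edgeR or by DESeq2. Of the 7 genes, 2 had an unadjusted p below 0.05, Hmgcs1 and Fdps, both with a lower mean in RA. Hmgcs1, the synthase that makes HMG-CoA, had 48.6 ± 6.43 FPKM in CON and 42.5 ± 0.366 FPKM in RA (SD, n = 3 each), so that its log2 fold change came to -0.21 (edgeR adjusted p = 0.202). Fdps, which makes farnesyl diphosphate, was the most abundant gene of the branch, with 101 ± 1.5 FPKM in CON and 92.9 ± 1.14 FPKM in RA, a log2 fold change of -0.13 (95% interval -0.25 to -0.011, adjusted p = 0.173, edgeR). The largest absolute value was that of Mvk, the mevalonate kinase, at 0.30 (95% interval -0.016 to 0.61, adjusted p = 0.232, edgeR). Mvk had 8.88, 12.1 and 12.1 FPKM in CON samples 1, 2 and 3 and 13.4, 12.9 and 14.8 FPKM in RA samples 1, 2 and 3, so that the RA samples were the highest and CON sample 1 the lowest. The thiolase Acat2 had a log2 fold change of 0.22, the phosphomevalonate kinase Pmvk 0.051, the decarboxylase Mvd 0.12 and the isomerase Idi1 -0.17. The summed level of the branch was 231 ± 6.86 FPKM in CON and 225 ± 1.65 FPKM in RA (SD, n = 3 each).

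The SREBP control genes were expressed at 10.3 to 139 FPKM on average over the 6 samples, and none of the 5 passed the test, nor had any an unadjusted p below 0.05. DESeq2 called none of them either. Srebf1, which encodes SREBP-1, was the most abundant member of all, and the one that differed most within CON. It had 98.2, 164 and 176 FPKM in CON samples 1, 2 and 3 and 126, 135 and 138 FPKM in RA samples 1, 2 and 3. CON sample 1 was the lowest and CON samples 2 and 3 were the highest of the 6, so the RA samples lay inside the CON range. The log2 fold change was -0.15 (95% interval -0.58 to 0.29, adjusted p = 0.679, edgeR). Without CON sample 1 it was -0.37 with an adjusted p of 6.68e-04 by edgeR, and without CON sample 3 it was 0.021. The direction of Srebf1 therefore rested on which CON samples were used. Srebf2, which encodes SREBP-2, had 0.095 (-0.18 to 0.37), Scap 0.096 (-0.17 to 0.36), Insig1 0.073 (-0.071 to 0.22) and Insig2 0.12 (-0.15 to 0.38). Insig1 is itself a gene that SREBP switches on, and its level was 46.5 ± 1.22 FPKM in CON and 49.3 ± 2.82 FPKM in RA (SD, n = 3 each).

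**Figure D3:**
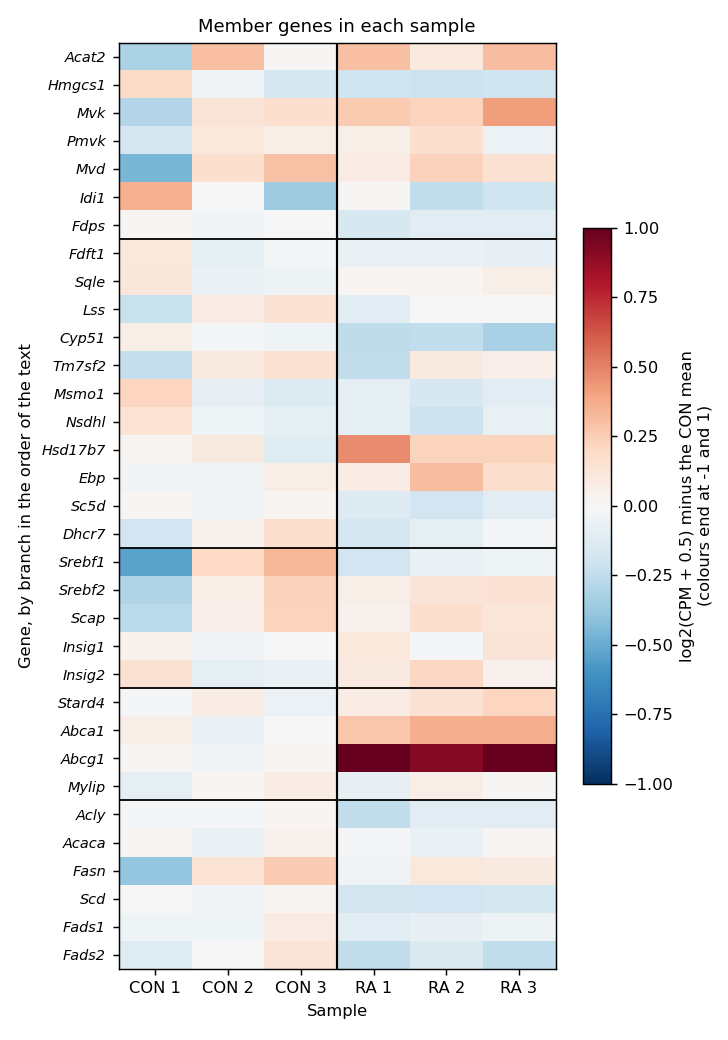
Difference of each tested gene (rows, by branch, in the order mevalonate, squalene to cholesterol, SREBP control, sterol transport, fatty acids) from its CON mean in each sample (columns), on the log2(CPM + 0.5) scale, with colours ending at -1 and 1. CON sample 1 is blue for Srebf1, Mvd and Fasn and red for Idi1, and all 3 RA samples are deep red for Abcg1.

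Of the 7 fatty acid synthesis genes, 6 were tested and none passed the test by edgeR, where 3 (Acly, Scd and Fads2) had an unadjusted p below 0.05 with a lower level in RA. By DESeq2, Scd was called. Scd, a stearoyl-CoA desaturase that makes monounsaturated fatty acids, had 92.0, 90.7 and 92.3 FPKM in CON samples 1, 2 and 3 and 81.9, 80.8 and 81.5 FPKM in RA samples 1, 2 and 3. The groups did not overlap and each was tight. The log2 fold change was -0.18 (95% interval -0.30 to -0.069), with an adjusted p of 0.0567 by edgeR, just outside the threshold, and of 0.0188 by DESeq2. Its close relative Scd2, which is not a member, was at 662 ± 23.1 FPKM in CON and 625 ± 5.65 FPKM in RA, so that its log2 fold change came to -0.095 (edgeR adjusted p = 0.273). How reads shared by these similar genes were assigned is not given in the sources used here, so the split between them is uncertain. Fads2, the desaturase that starts the synthesis of long polyunsaturated fatty acids, had 79.1, 86.2 and 92.7 FPKM in CON samples 1, 2 and 3 and 73.6, 78.2 and 72.6 FPKM in RA samples 1, 2 and 3. Its log2 fold change of -0.21 was the largest of the branch in absolute size (95% interval -0.39 to -0.037, adjusted p = 0.137, edgeR).

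Acly, the ATP citrate lyase, had -0.16 on the log2 scale (edgeR adjusted p = 0.145), Acaca, the acetyl-CoA carboxylase, -0.021, and the desaturase Fads1 -0.082. Fasn, the fatty acid synthase, had 28.4, 40.9 and 43.7 FPKM in CON samples 1, 2 and 3 and 36.7, 40.0 and 39.6 FPKM in RA samples 1, 2 and 3. As with Srebf1, CON sample 1 was the lowest and CON sample 3 the highest, and the log2 fold change of 0.027 (95% interval -0.31 to 0.36) became -0.14 without CON sample 1 (adjusted p = 0.111, edgeR). Elovl6, the elongase that takes palmitate to stearate, was barely detected, with 7, 3 and 6 counts in CON and 4, 5 and 0 in RA, and was not tested.

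CON sample 1 differed from the mean of CON samples 2 and 3 by more than 0.3 on the log2 scale in 11 of the 33 members, while CON sample 3 did so in 6, and CON sample 2 and each RA sample in 1, against the other two of their group. CON sample 1 was lower for Srebf1 (-0.80), Mvd (-0.68), Fasn (-0.59), Acat2 (-0.47), Srebf2 (-0.45), Mvk (-0.44), Scap (-0.41), Tm7sf2 (-0.36) and Lss (-0.33), and higher for Idi1 (0.53) and Msmo1 (0.32). The median absolute difference was 0.19 over the members and 0.21 over all tested genes, so CON sample 1 stood apart by about as much in the members as elsewhere. Without CON sample 1, 2 members passed the test with a higher level in RA and 4 with a lower one, or 18.2% of the 33. In the same fit 16.5% of all 13623 tested genes passed, 8.65% higher and 7.8% lower, so more genes were called throughout. The 4 lower members were Cyp51 (-0.24, adjusted p = 0.00405, edgeR), Scd (-0.18, adjusted p = 0.0113, edgeR), Fads2 (-0.28, adjusted p = 0.00625, edgeR) and Srebf1 (-0.37, adjusted p = 6.68e-04, edgeR).

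Log2 fold changes of members that passed in neither fit also moved without CON sample 1. Values nearer to 0 were found for Acat2 (0.077), Hmgcs1 (-0.11), Mvk (0.16), Fdft1 (-0.019), Msmo1 (-0.014), Nsdhl (-0.055) and Acaca (-0.011). Values farther from 0 were found for Sqle (0.091), Lss (-0.15), Tm7sf2 (-0.16), Dhcr7 (-0.19), Insig2 (0.20) and Mylip (-0.049). The sign turned for Pmvk (-0.031), Mvd (-0.078), Idi1 (0.030), Srebf2 (-0.040) and Scap (-0.029), besides Fasn. Over the 6 fits that each dropped a sample, the members that kept their sign but moved by more than 1.5 times were Acat2 (0.077 to 0.38), Hmgcs1 (-0.29 to -0.11), Mvk (0.16 to 0.39), Fdft1 (-0.12 to -0.019), Msmo1 (-0.20 to -0.014), Nsdhl (-0.18 to -0.055), Ebp (0.13 to 0.25), Dhcr7 (-0.19 to -0.013), Insig1 (0.044 to 0.12), Insig2 (0.065 to 0.20) and Fads1 (-0.10 to -0.041), none of which passed in any of them.

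The CPM of the groups did not overlap for 14 of the 33 members, 6 with RA above CON and 8 with RA below, or 42.4%. Among all tested genes this share was 31.9%, made up of 16.8% above and 15.1% below. By branch, RA lay below CON in 4 of 6 fatty acid genes (Acly, Scd, Fads1 and Fads2) and above it in none, and above CON in 3 of 4 sterol transport and LXR genes (Stard4, Abca1 and Abcg1) and below it in none. Among the 7 mevalonate genes it was above in 1 and below in 2, among the 11 squalene-to-cholesterol genes above in 2 and below in 2, and among the 5 SREBP control genes neither. An unadjusted p below 0.05 was found for 10 members, or 30.3%, and for 24% of all tested genes. The median log2 fold change was 0.24 for sterol transport and LXR targets, 0.095 for SREBP control, 0.051 for the mevalonate steps, -0.073 for squalene to cholesterol and -0.12 for fatty acid synthesis. Without CON sample 1 the median turned to -0.029 for SREBP control and to -0.031 for the mevalonate steps, and the latter was -0.0060 without RA sample 2. The median of squalene to cholesterol was -0.013 without CON sample 3.

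**Figure D4:**
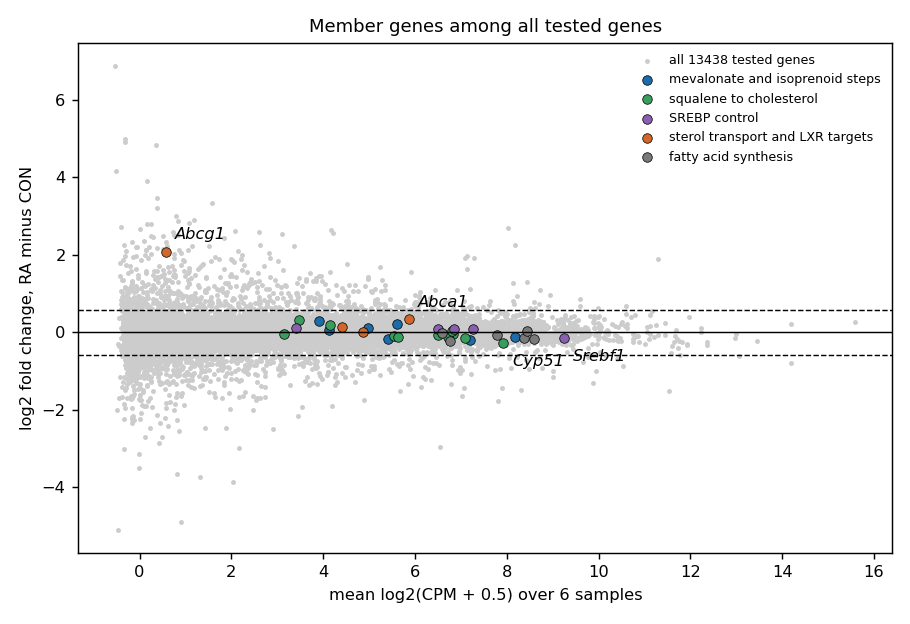
Log2 fold change of RA against CON (y axis) against the mean log2(CPM + 0.5) over the 6 samples (x axis) for all 13438 tested genes in grey and the 33 tested members in the colours of their branches, with dashed lines at -0.58 and 0.58. The members other than Abcg1 lie in the middle and right of the plot, close to 0, and Abcg1 lies at the left, above the upper line.

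The levels showed a culture in which both routes were transcribed. Of the 34 members, 28 had a mean above the median of the tested genes, 8.40 FPKM, and FPKM is scaled by gene length, so levels can be set side by side. The highest means over the 6 samples were those of Srebf1 (139 FPKM), Fdps (96.8 FPKM), Scd (86.5 FPKM), Fads2 (80.4 FPKM), Acly (76.4 FPKM) and Cyp51 (72.6 FPKM). The lowest were those of Elovl6 (0.118 FPKM), Abcg1 (0.303 FPKM), Hsd17b7 (2.70 FPKM) and Tm7sf2 (3.72 FPKM). Of the 2 exporters, Abca1 was at 5.66 FPKM and Abcg1 at 0.303 FPKM on average, and Abca1 stayed the more abundant in RA.

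From a list of 61 neighbouring genes of the same pathways that are not members, 60 had a row and 58 were tested. Of these, 1 was a DEG, lower in RA, and 5 had an adjusted p below 0.05 by edgeR, 2 higher and 3 lower. These are 1.72% and 8.62% of the tested neighbours, against 4.96% and 9.82% of all tested genes. The DEG was Me1, the cytosolic malic enzyme, which supplies NADPH for lipid synthesis. It had 73.9, 57.0 and 54.9 FPKM in CON samples 1, 2 and 3 and 40.4, 41.0 and 38.3 FPKM in RA samples 1, 2 and 3, with no overlap and with CON sample 1 the highest. The log2 fold change was -0.65 ± 0.108 (standard error), with an edgeR adjusted p of 0.00698. Without CON sample 1 it was -0.50 (adjusted p = 3.13e-05, edgeR), short of the fold threshold. Acss2, which makes acetyl-CoA from acetate, was lower at -0.35 (adjusted p = 0.0216, edgeR), a call lost without CON sample 3 (-0.30) and without any of the RA samples (-0.39, -0.34 and -0.32 for samples 1, 2 and 3). Vldlr, a lipoprotein receptor, was also lower at -0.35 (adjusted p = 0.0151, edgeR), a call lost without RA sample 1 (-0.36), RA sample 2 (-0.36) or RA sample 3 (-0.33).

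The 2 neighbours that passed the test with a higher level in RA were Npc1 and Lpcat3. Dgat1 (0.40, adjusted p = 0.0507, edgeR) and Elovl5 (0.22, adjusted p = 0.0519, edgeR) were just outside the threshold, with RA above CON in all samples. Of the 58 tested neighbours, RA lay wholly above CON in 10 and wholly below it in 9, against 16.8% and 15.1% of all tested genes. Npc1, which moves cholesterol out of lysosomes, had 18.1, 17.8 and 18.2 FPKM in CON samples 1, 2 and 3 and 22.7, 23.3 and 23.8 FPKM in RA samples 1, 2 and 3. All RA samples lay above all CON samples, with a log2 ratio of RA to CON of 0.35 ± 0.0566 (standard error, edgeR adjusted p = 0.00574), and the call held whichever of the 6 samples was dropped. Lpcat3, a phospholipid acyltransferase, had 0.20 (standard error 0.0534, adjusted p = 0.0494, edgeR). This call was lost with RLE factors (adjusted p = 0.0506, edgeR), with upper-quartile factors, without the filter on low counts and without any sample other than CON sample 1. None of the 6 tested genes that process or degrade the SREBP machinery, of the 8 of isoprenoid use and of the 10 of fatty acid oxidation passed edgeR's test, with 0, 1 and 3 genes at an unadjusted p below 0.05.

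The promoters were read to see which letters the members share. RefSeq promoters on the rat build GRCr8, 300 bases from 250 before to 50 after the start, were held for 26 of the 34 members, and Srebf1 had more than 1. Promoters of Abcg1, Stard4, Pmvk, Fdft1, Sqle, Acaca, Fasn and Elovl6 were not analysed here, so the search did not cover the 1 DEG. Both strands were searched. CCAAT, the box that NF-Y binds, was found in 19 of the 26 members, or 73.1%, and in 37.5% of all 33469 promoters. GGGCGG, the Sp1 box, was found in 22 members, or 84.6%, and in 33.1% of all promoters. Promoters of tested genes are richer in the Sp1 box, at 61.5% of 10970, and held CCAAT in 37.2%. Both boxes together were found in 16 members, or 61.5%, in 11.8% of all promoters and in 22.9% of those of tested genes. NF-Y and Sp1 are known partners of SREBP at sterol genes. The E-box CACGTG was in 4 members (Sc5d, Scap, Insig1 and Abca1), and in 6.42% of all promoters and 9% of those of tested genes. TCACNCCAC, a core of the sterol regulatory element, was in none of the 26 members and in 1.12% of all promoters, and the ideal DR4 repeat, the form of element that LXR and RXR bind, was in none and in 0.00598% of all, so these exact letters are not in these windows.

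The promoters printed here are those of Abca1 and Cyp51, members that passed the test, beside those of Fdps and Insig1, SREBP target genes that did not, to show how the boxes lie in each. The NF-Y box, the Sp1 box and the E-box, on either strand, are in capitals, and all are written 5′ to 3′ along the gene's strand. Abca1 lies at chr5:72596424-72596723 on the minus strand, Cyp51 at chr4:30991443-30991742 on the plus strand, Fdps at chr2:176804767-176805066 on the minus strand and Insig1 at chr4:8057720-8058019 on the minus strand, all in GRCr8.
Abca1: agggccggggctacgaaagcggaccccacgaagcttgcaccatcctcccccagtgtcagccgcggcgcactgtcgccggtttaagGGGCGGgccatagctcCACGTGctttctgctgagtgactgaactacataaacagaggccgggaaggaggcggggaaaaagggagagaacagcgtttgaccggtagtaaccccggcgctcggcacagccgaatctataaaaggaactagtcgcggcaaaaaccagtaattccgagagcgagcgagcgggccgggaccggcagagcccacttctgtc
Cyp51: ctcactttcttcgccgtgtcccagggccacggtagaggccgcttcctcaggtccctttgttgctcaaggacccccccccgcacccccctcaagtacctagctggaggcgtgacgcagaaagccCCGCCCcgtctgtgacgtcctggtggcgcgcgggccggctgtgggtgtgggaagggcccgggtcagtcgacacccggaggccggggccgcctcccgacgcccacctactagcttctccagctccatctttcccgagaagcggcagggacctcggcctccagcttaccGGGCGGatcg
Fdps: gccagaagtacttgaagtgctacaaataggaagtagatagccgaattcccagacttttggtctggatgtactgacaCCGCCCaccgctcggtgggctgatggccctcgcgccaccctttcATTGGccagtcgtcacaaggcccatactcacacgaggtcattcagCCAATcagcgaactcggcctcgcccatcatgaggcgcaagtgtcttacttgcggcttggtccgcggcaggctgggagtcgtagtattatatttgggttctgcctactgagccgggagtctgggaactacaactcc
Insig1: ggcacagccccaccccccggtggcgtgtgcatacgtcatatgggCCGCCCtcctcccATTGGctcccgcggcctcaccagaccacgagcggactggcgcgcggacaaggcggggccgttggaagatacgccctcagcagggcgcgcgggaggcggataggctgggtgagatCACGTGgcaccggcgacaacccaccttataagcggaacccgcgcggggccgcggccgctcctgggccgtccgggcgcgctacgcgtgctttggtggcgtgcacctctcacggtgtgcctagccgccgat
Fdps held 2 CCAAT boxes and Insig1 held 1, and none was found for Abca1 and Cyp51, as for the members Acat2, Dhcr7, Scap, Scd and Fads2, which did not pass the test. Cyp51 held 2 Sp1 boxes and each of the others 1. The matches are a description of letters and not of binding.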

How the data were processed

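Poly(A) RNA of 3 CON and 3 RA samples was sequenced. Per sample, the authors deposited raw gene counts (each a whole-number count) and an FPKM value. For all 10172 genes with at least 100 counts in every sample, the gene length that count and FPKM imply was the same over samples within 0.1%. The submitters' processing notes name HISAT2, HTSeq 0.13.5 and Rnor_6.0. The strand setting and the treatment of shared reads are not given in the sources used here, so counts of similar, overlapping or antisense genes are uncertain.

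Counts were tested with edgeR 4.0.16 in R 4.3.3 (glmQLFit and glmQLFTest, TMM factors, filterByExpr with its minimum count of 10, no covariates, 6 samples), with Benjamini-Hochberg adjustment over 13438 genes. Standard errors came from the F statistic, and 95% intervals from the t distribution with the fit's degrees of freedom. Members, branches, lists of other genes and the rule for named genes (all members, with values per sample for those that passed the test and the largest of each branch, and neighbours that were DEGs) were chosen with earlier results of these data known. Genes given beyond that rule, such as Hmgcs1, Fdps, Scd, Fasn, Scd2, Npc1, Lpcat3, Acss2 and Vldlr, were chosen after their values were seen, and so were the promoters printed. Markers of endothelium (Cdh5, Kdr, Tek) summed to 0.0302 to 0.178 FPKM in CON and 0.0627 to 0.145 FPKM in RA. On simulated data, edgeR called as DEGs 80.8% of the genes changed by 1 on the log2 scale and 100% of those changed by 2. It also called 7 unchanged genes. Changes as small as those of most members were not simulated, and neither was a sample that stands apart. Alternatives were other factors, DESeq2 1.42.0, other filters, limma 3.58.1 on log2(FPKM + 0.1) and log2(FPKM + 1), each sample left out, a replicate block and other thresholds. Intervals cover counting error and the spread between these samples. Of the retinoid response genes looked up, 1 is not reported here.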

Additional observations from a re-analysis of the deposited data

How the results depend on the processing

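With RLE or upper-quartile factors, total counts only, DESeq2, no filter, a mean CPM filter of 1, limma on log2(FPKM + 0.1) and the replicate block, Abcg1 was the 1 member DEG. On log2(FPKM + 1), which shrinks low genes, its log2 fold change was 0.42 and 0 members were DEGs, with 434 DEGs among all genes. With upper-quartile factors, DESeq2 or the CPM filter, 2 members passed the test with a lower level in RA. Neighbours that passed with a higher level numbered 1 with upper-quartile factors and 4 with total counts only or DESeq2. Without a fold threshold, 2 members and 2 neighbours were higher and 1 and 3 lower, of 1319 genes. An unadjusted p below 0.05 with the fold threshold gave 1017 genes.

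With each sample left out, 1 to 2 members passed the test with a higher level and 0 to 4 with a lower one, and 1 to 4 neighbours with a higher level and 1 to 5 with a lower one. The neighbour DEGs that were lower numbered 0 to 1. Values changed sign for some members, none of which passed the test with all samples. They ranged from -0.031 to 0.11 for Pmvk, -0.078 to 0.27 for Mvd, -0.33 to 0.030 for Idi1, -6e-04 to 0.091 for Sqle, -0.15 to 0.026 for Lss, -0.16 to 0.067 for Tm7sf2, -0.37 to 0.021 for Srebf1, -0.040 to 0.22 for Srebf2, -0.029 to 0.21 for Scap, -0.049 to 0.041 for Mylip, -0.055 to 0.0022 for Acaca and -0.14 to 0.16 for Fasn. Mylip was at 0.010 with total counts only, 0.011 on log2(FPKM + 0.1) and 0.0096 on log2(FPKM + 1). The cause was not tested.

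Deviations of same-numbered CON and RA samples from their group means had correlations of 0.093, -0.012 and 0.012 for numbers 1, 2 and 3. Whether same-numbered samples share an isolation or a batch is not given in the sources used here. With 3 samples per group, and CON sample 1 apart from the others, these correlations cannot settle it. With the replicate block, 1 member DEG was higher, 2 members passed the test with a higher level and 1 with a lower one, there were 684 DEGs among all genes, and the neighbour Lpcat3 lost its call (0.20, adjusted p = 0.0549, edgeR). Elovl6 was not tested because of its low counts.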
